A study of Homo sapiens with 12 samples.

Results

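The human genes for the neural and mesenchymal intermediate filament proteins were followed in 2 Ewing sarcoma cell lines, EW8 and TC71, with and without induced c-Jun and c-Fos, the classic pair of AP-1 proteins. The 10 genes were chosen by protein family, with earlier results of these data known. They encode vimentin (VIM), desmin (DES), glial fibrillary acidic protein (GFAP), peripherin (PRPH), nestin (NES), synemin (SYNM) and alpha-internexin (INA). The others encode the neurofilament light, medium and heavy chains (NEFL, NEFM and NEFH). The members are 10 of the 58721 genes in the deposited table. All 10 were among the 21013 genes with enough counts to be tested, although DES, GFAP and NEFM passed that filter with some groups at or near 0 counts.

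Poly(A) RNA was sequenced from 12 libraries, 3 in each of 4 groups. EW8 and TC71 are established lines of Ewing sarcoma, a bone and soft tissue tumour of young people driven by the EWS-FLI1 fusion. Both lines carried lentivirus in all 4 groups: an insert that joins c-Jun and c-Fos by a self-cleaving peptide, behind the doxycycline-responsive TRE3G promoter, and the Tet-On 3G transactivator behind the EF1 alpha promoter, with geneticin and puromycin selection. The groups were EW8 with DMSO as vehicle, EW8 with doxycycline at 2000 ng/ml, and the same pair for TC71, each for 72 h. The labels give the vehicle cells the genotype WT and the doxycycline cells the genotype AP1_overexpression. No library came from doxycycline-treated cells without the insert, so an effect of doxycycline itself and the effect of the induced proteins cannot be told apart. Nothing in the labels says that the 3 libraries of a group were separate cultures, so the p-values measure the spread between libraries, which may be technical.

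Intermediate filaments are ropes of coiled-coil proteins that give a cell mechanical strength, and which proteins build them depends on the tissue. Vimentin is typical of mesenchymal cells, desmin of muscle, GFAP of astrocytes, nestin of progenitor cells of nerve and muscle, and peripherin, alpha-internexin and the neurofilament chains of neurons. Ewing sarcoma cells are known for a mixed character with both mesenchymal and neural traits. AP-1 is a dimer of Jun and Fos family proteins that binds DNA at a short palindromic site.

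The libraries held 42860665 to 60853649 counts assigned to genes. Each mate of a read pair was counted on its own, so 3 read pairs appear as 6 counts, and 6 counts were taken as the floor in a library. That floor corresponded to 0.0966 to 0.145 CPM, the count scaled to the size of its library with the TMM factors of edgeR. It covers counting error alone. FOS rose from 36.8 ± 0.814 to 1078 ± 72 CPM in EW8 and from 11.7 ± 0.426 to 1580 ± 120 CPM in TC71 (mean ± SD, n = 3), and JUN rose from 21.6 ± 2.61 to 473.7 ± 44.8 CPM and from 20.7 ± 4.01 to 755.5 ± 54.6 CPM. Reads from the insert and from the cells' own JUN and FOS cannot be told apart in these counts. The counts of paired replicates differed by a chi-square of 5.24 to 10.2 per gene in 10 of the 12 pairs. TC71 vehicle library 1 differed from its replicates by 58.9 and 56.1 per gene and stood apart, so the TC71 results are also given without it. No pair of libraries agreed within sampling noise.

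Upstream sequence was read from the table of RefSeq promoter windows used here (GRCh38.p14) for VIM, NES, SYNM, INA and PRPH, 5 of the 10 members. DES, GFAP, NEFL, NEFM and NEFH are named here without sequence. The 250 bases before the start of VIM, NES and INA are shown because these 3 genes differ in function and in how far the lines shared their response, and because their windows lie outside the gene as annotated in the count table. The windows are chr10:17227991-17228240 on the plus strand for VIM, chr1:156677408-156677657 on the minus strand for NES, and chr10:103276888-103277137 on the plus strand for INA. They are written 5′ to 3′ along the gene, and capitals mark the GC box, GGGCGG or its complement CCGCCC.
VIM: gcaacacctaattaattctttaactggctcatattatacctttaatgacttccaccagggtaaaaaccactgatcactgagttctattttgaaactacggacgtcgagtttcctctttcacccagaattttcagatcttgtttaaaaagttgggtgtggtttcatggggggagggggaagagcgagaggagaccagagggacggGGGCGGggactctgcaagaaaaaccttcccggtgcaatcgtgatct
NES: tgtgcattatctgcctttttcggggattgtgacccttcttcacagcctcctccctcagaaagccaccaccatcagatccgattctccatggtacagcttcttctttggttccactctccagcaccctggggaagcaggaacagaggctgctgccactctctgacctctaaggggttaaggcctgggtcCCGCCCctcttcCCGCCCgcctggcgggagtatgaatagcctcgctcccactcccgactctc
INA: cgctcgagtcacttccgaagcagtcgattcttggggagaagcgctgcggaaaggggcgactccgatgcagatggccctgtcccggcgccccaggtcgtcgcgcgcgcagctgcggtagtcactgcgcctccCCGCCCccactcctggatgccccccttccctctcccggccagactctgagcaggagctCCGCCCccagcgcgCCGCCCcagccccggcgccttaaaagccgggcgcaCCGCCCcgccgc

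Letters were searched on both strands in all 5 windows and in the 35114 windows of the same length in the RefSeq table. The AP-1 site TGANTCA was in 6.57% of all windows, the cyclic AMP response element TGACGTCA in 1.65% and the tandem ETS core GGAAGGAA in 3.06%, and none of these letters was in the 5 windows of the members. The E-box CAGGTG, the letters that Snail-type repressors bind, was in 17.5% of all windows and, among the members, in that of SYNM, on the minus strand 159 bases before the start. No motif searched contains another. The GC box was in 42.6% of all windows and in those of VIM, NES, SYNM and INA, beginning 46 bases before the start in VIM. A TATA box, TATAAA, was in 10.7% of all windows and, among the members, in that of PRPH, 31 bases before the start. The VIM window holds 46% G and C and the SYNM window 78.8%.

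In EW8, doxycycline raised 6 of the 10 genes and lowered 1 at an edgeR adjusted p under 0.05 and a change of more than 1 on the log2 scale. Of all genes tested, 11.4% were called higher and 3.38% lower by the same rule. The genes called higher were VIM, NES, DES, GFAP, NEFL and NEFM, and the gene called lower was PRPH. GFAP and NEFM were at or below the floor of 6 counts in every vehicle library, so any call on them had to be a rise, and neither kept enough counts to be tested when EW8 was fitted alone. Of the other 8 genes 4 were called higher. SYNM, INA and NEFH changed by less than the fold limit. The median log2 fold change of the 10 genes was 1.58, against -0.03 over all genes tested, and it was 0.90 with GFAP and NEFM set at the lower bound that their vehicle counts allow.

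In TC71, 7 of the 10 genes were called higher and 1 lower, where 12.3% of all genes tested were called higher and 3.67% lower. VIM, NES, DES, SYNM, INA, NEFL and NEFM were higher, and PRPH was again lower. NEFH was lower with a change short of the fold limit, and GFAP did not pass the test. DES and GFAP were at or below the floor in every TC71 vehicle library, and of the other 8 genes 6 were called higher. The median log2 fold change of the 10 genes was 1.94, against 0 over all genes tested, and 1.85 with DES and GFAP at their bounds. Without TC71 vehicle library 1 the counts were 7 higher and 1 lower, and the log2 fold changes were 2.64 for NES and 1.23 for SYNM, against 2.70 and 1.23 with it. DES was called (adjusted p = 4.3e-05) and GFAP was not (adjusted p = 0.0747) without that library. These are bulk libraries, in which a change in the number of cells that express a gene and a change in RNA per cell cannot be told apart.

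**Figure D1:**
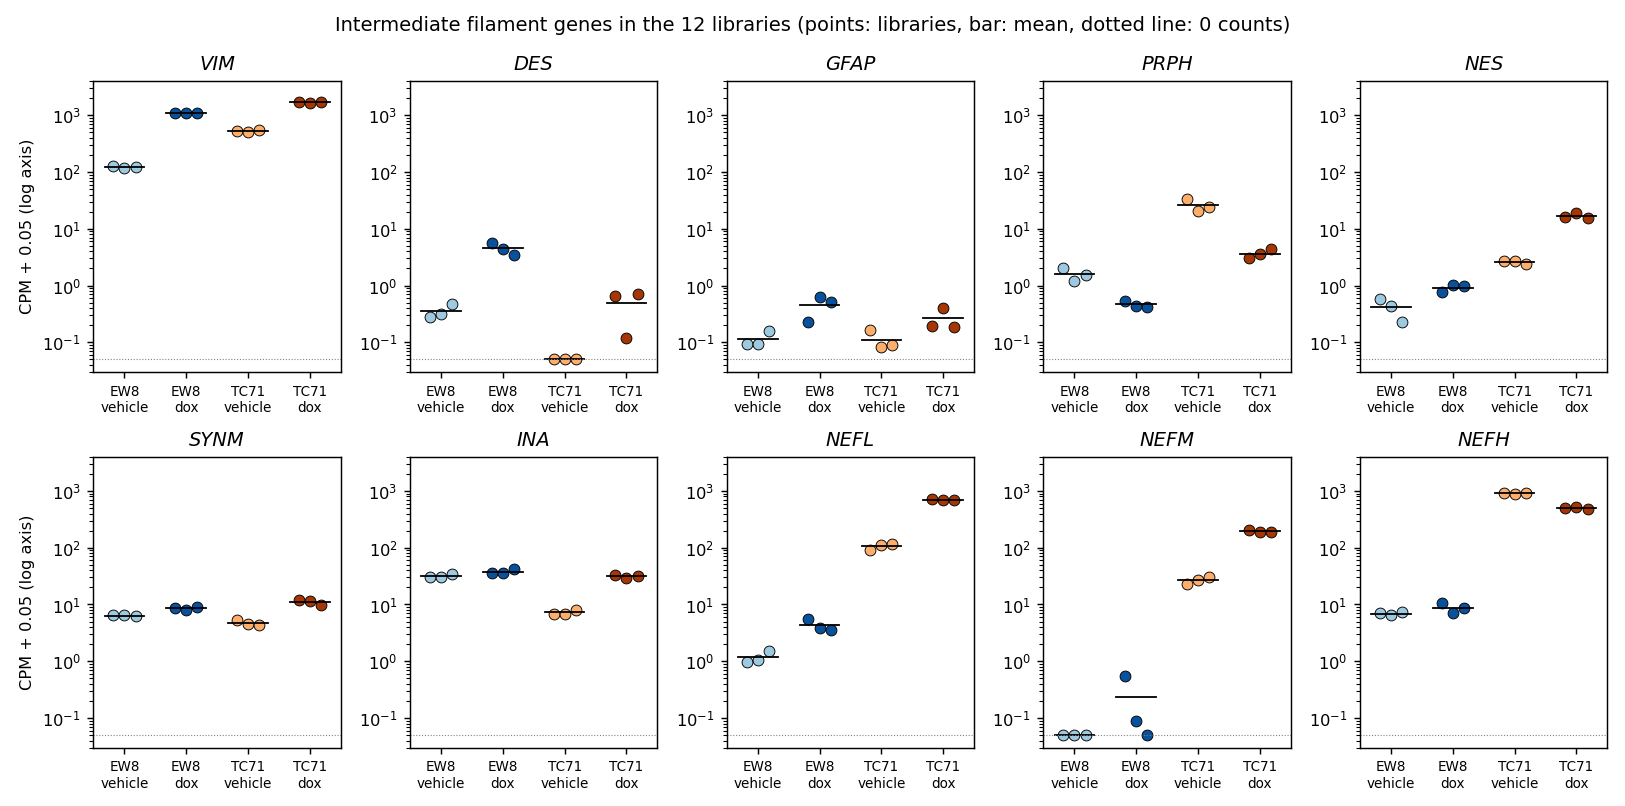
CPM plus 0.05 (log axis) of the 10 genes in each of the 12 libraries, in 4 groups of 3, with a bar at the group mean and a dotted line at 0 counts. VIM was the most abundant in EW8 in both conditions and rose in both lines, PRPH fell in both, and the neurofilament genes stood at different levels in EW8 and TC71 throughout.

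VIM (ENSG00000026025.15, chr10:17228259-17237593, plus strand, hg38) encodes the main filament protein of mesenchymal cells. It stood at 127.1, 119 and 120.9 CPM in the EW8 vehicle libraries and at 1073, 1073 and 1097 CPM under doxycycline. In TC71 the vehicle libraries held 537.3, 508.9 and 539.5 CPM and the doxycycline libraries 1740, 1622 and 1675 CPM. Within each line every doxycycline library was above every vehicle library. The rise was 8.83-fold in EW8 (log2 3.14 ± 0.05, SE; edgeR adjusted p = 1.74e-18) and 3.18-fold in TC71 (log2 1.67 ± 0.05; adjusted p = 2.72e-15). Without TC71 vehicle library 1 the TC71 value was 1.60. The response was smaller in TC71 by 1.48 on the log2 scale (SE 0.07; adjusted p of the difference, 2.11e-11). TC71 started 4.32-fold above EW8, and under doxycycline it was 1.55-fold above (log2 0.64 ± 0.05; adjusted p = 1.04e-09), within the fold limit. The antisense gene VIM-AS1 overlaps VIM and held 30 to 85 counts in a library, while VIM held 5461 to 73631. Reads that fall on both genes were left out of both.

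DES (ENSG00000175084.11, chr2:219418377-219426739, plus strand) encodes desmin, the filament protein of skeletal, cardiac and smooth muscle. Its values were 0.226, 0.262 and 0.431 CPM in EW8 vehicle libraries, from 10 to 24 counts, and 5.57, 4.41 and 3.38 CPM with doxycycline, from 148 to 311 counts. All 3 doxycycline libraries lay above the vehicle libraries, with a rise of 14.3-fold (log2 3.83 ± 0.52; edgeR adjusted p = 1.55e-05). TC71 vehicle libraries held 0 counts, and the doxycycline libraries held 25, 3 and 29 counts, of which 3 counts in library 2 are below the floor. The TC71 rise was therefore given as a bound: DES was at least 4.08-fold higher than the floor of the vehicle libraries (adjusted p = 8.57e-05). DES was lower in TC71 than in EW8, where it was at least 2.80-fold higher under vehicle and 9.92-fold higher under doxycycline (adjusted p = 0.00017 and 2.65e-05). The difference between the responses of the lines did not pass the test (adjusted p = 0.153), whereas it passed without TC71 doxycycline library 2 (adjusted p = 0.0276).

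GFAP (ENSG00000131095.12, chr17:44903161-44916937, minus strand), the filament protein of astrocytes, was close to the limit of detection. The EW8 libraries held 2, 2 and 6 counts under vehicle and 10, 29 and 20 under doxycycline, and the TC71 libraries held 6, 2 and 2 against 6, 15 and 6. The EW8 groups did not overlap in CPM, at 0.0436 to 0.108 and 0.179 to 0.573, and the doxycycline mean was at least 3.23-fold higher than the floor (edgeR adjusted p = 0.0171). This call was lost without EW8 vehicle library 1 (adjusted p = 0.0715), without EW8 vehicle library 2 (adjusted p = 0.0711) or without EW8 doxycycline library 2 (adjusted p = 0.0813). In TC71, 2 of the 3 doxycycline libraries were at the floor, and the change did not pass the test (adjusted p = 0.0979). Under vehicle both lines were at the floor, and no fold is given between them.

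PRPH (ENSG00000135406.13, chr12:49293252-49298686, plus strand) encodes peripherin, a filament protein of peripheral and sensory neurons, and was the member that fell in both lines. In EW8 it went from 1.96, 1.13 and 1.49 CPM to 0.483, 0.395 and 0.365 CPM. In TC71 it went from 33.4, 20.8 and 24.1 CPM to 2.98, 3.54 and 4.28 CPM. Within each line all doxycycline libraries were below all vehicle libraries, and TC71 vehicle library 1 was the highest of its group. The fall was 3.63-fold in EW8 (log2 -1.86 ± 0.28; edgeR adjusted p = 2.99e-05) and 7.24-fold in TC71 (log2 -2.86 ± 0.20; adjusted p = 1.47e-09), and -2.72 on the log2 scale without TC71 vehicle library 1. The TC71 response minus the EW8 response was -0.99 ± 0.36 on the log2 scale and did not pass the test (adjusted p = 0.0641). That difference passed it in DESeq2 (adjusted p = 0.0215), and in edgeR also when TC71 vehicle library 2 (adjusted p = 0.0327), TC71 vehicle library 3 (adjusted p = 0.0461), TC71 doxycycline library 3 (adjusted p = 0.0458) or EW8 vehicle library 1 (adjusted p = 0.0319) was left out. The PRPH difference was called in 6 of 19 alternative settings and not in the others, among them the fit without TC71 vehicle library 1. It ranged from -1.20 to -0.83 over these settings (edgeR or DESeq2), with an adjusted p of up to 0.141. PRPH was higher in TC71 than in EW8, 17.1-fold under vehicle and 8.57-fold under doxycycline (adjusted p = 1.55e-11 and 9.47e-09). The antisense gene TROAP-AS1, which overlaps it, held 0 to 26 counts.

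**Figure D2:**
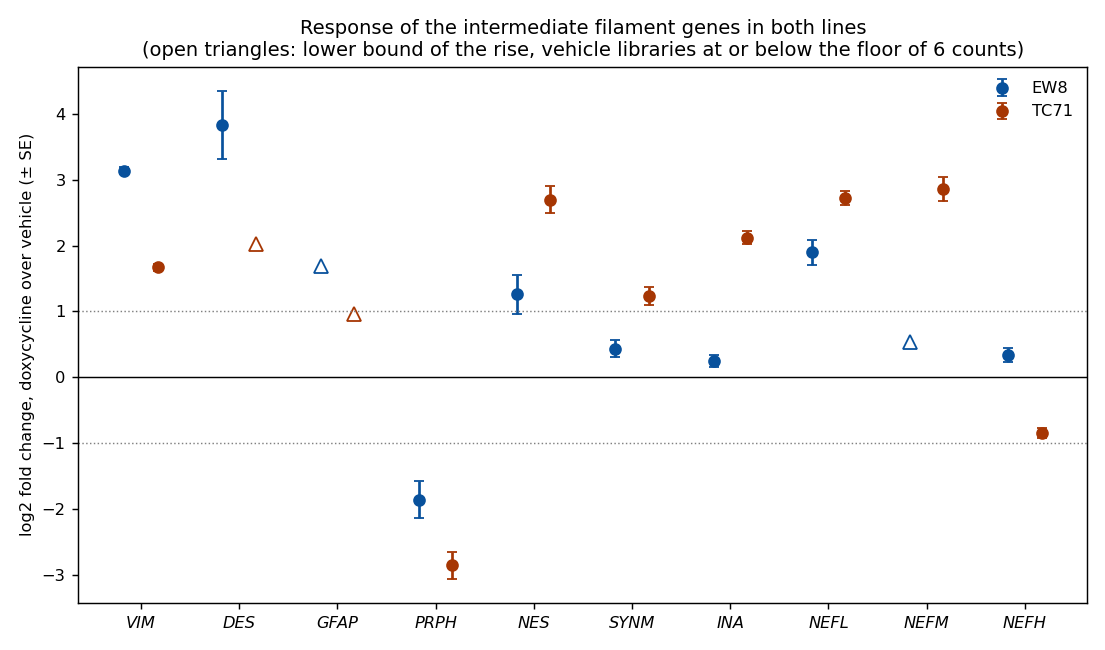
Log2 fold change of each gene, doxycycline over vehicle, with its standard error, in EW8 (blue) and TC71 (brown), with dotted lines at the fold limit of 1 and -1. Open triangles are lower bounds for genes whose vehicle libraries were at or below 6 counts (GFAP in both lines, DES in TC71 and NEFM in EW8). VIM lies higher in EW8, NES, SYNM and INA lie higher in TC71, and NEFH lies on opposite sides of 0.

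NES (ENSG00000132688.10, chr1:156668763-156677397, minus strand) encodes nestin, a large filament protein of neural and muscle progenitors that needs a partner such as vimentin to form filaments. It was low in EW8, with 0.541, 0.392 and 0.180 CPM under vehicle and 0.716, 0.988 and 0.914 CPM under doxycycline. In TC71 it was at 2.64, 2.71 and 2.37 CPM under vehicle and at 16.3, 18.6 and 15.4 CPM under doxycycline. The groups did not overlap in either line. NES rose 2.40-fold in EW8 (log2 1.26 ± 0.30; edgeR adjusted p = 0.00186) and 6.52-fold in TC71 (log2 2.70 ± 0.21; adjusted p = 4.89e-09). The EW8 change fell short of the fold limit without EW8 vehicle library 3, the lowest of its group (log2 0.94; adjusted p = 0.0105). The response was larger in TC71 by 1.44 on the log2 scale (SE 0.37; adjusted p = 0.00979). This difference was not called without EW8 vehicle library 1 (log2 1.07; adjusted p = 0.0767). NES was 7.08-fold higher in TC71 than in EW8 under vehicle and 19.2-fold higher under doxycycline.

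SYNM (ENSG00000182253.14, chr15:99098217-99135593, plus strand) encodes synemin, which joins desmin and vimentin filaments to the dystrophin complex at the membrane. EW8 libraries held 6.38, 6.36 and 6.23 CPM under vehicle and 8.57, 7.94 and 9.09 CPM under doxycycline. TC71 libraries held 5.25, 4.53 and 4.35 CPM and 11.8, 11.4 and 9.81 CPM. The groups did not overlap in either line, but the EW8 change of 1.35-fold was within the fold limit (log2 0.43 ± 0.13; edgeR adjusted p = 0.0135), and SYNM was called in TC71 alone, at 2.34-fold (log2 1.23 ± 0.14; adjusted p = 5.17e-07). The test of the difference gave 0.80 ± 0.19 on the log2 scale (adjusted p = 0.00574), again within the fold limit. Between the lines the differences were within the fold limit: TC71 was lower under vehicle (log2 -0.43 ± 0.14) and higher under doxycycline (log2 0.37 ± 0.13).

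INA (ENSG00000148798.10, chr10:103277163-103290351, plus strand) encodes alpha-internexin, a filament protein of developing and central neurons that assembles with the neurofilament chains. In EW8 it was at 30.8, 30.1 and 34.8 CPM under vehicle and 36.4, 35.7 and 41.3 CPM under doxycycline. In TC71 it went from 6.84, 6.86 and 7.98 CPM to 33.0, 29.2 and 31.9 CPM. The lowest EW8 doxycycline library was above the highest EW8 vehicle library by less than 1 CPM, whereas the TC71 groups were far apart. INA rose 4.34-fold in TC71 (log2 2.12 ± 0.10; edgeR adjusted p = 4.17e-12; 2.00 without TC71 vehicle library 1), and in EW8 the change was 1.18-fold (log2 0.24 ± 0.09; adjusted p = 0.0424). The difference of the responses was 1.88 ± 0.14 on the log2 scale (adjusted p = 1.73e-08). INA was 4.42-fold lower in TC71 under vehicle. Under doxycycline TC71 was 1.21-fold lower (log2 -0.27 ± 0.09; adjusted p = 0.0181).

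NEFL encodes the light neurofilament chain, which neurofilaments need for assembly, and lies beside NEFM on chromosome 8, on the opposite strand. EW8 vehicle libraries held 0.902, 1.00 and 1.47 CPM of NEFL and EW8 doxycycline libraries 5.46, 3.74 and 3.52 CPM. TC71 vehicle libraries held 91.3, 113.2 and 116.2 CPM and TC71 doxycycline libraries 718.6, 695.1 and 695 CPM. The groups were separate in both lines, and the TC71 vehicle libraries were far above every EW8 library. NEFL rose 3.72-fold in EW8 (log2 1.90 ± 0.19; edgeR adjusted p = 2.27e-07) and 6.57-fold in TC71 (log2 2.72 ± 0.11; adjusted p = 6.71e-13; 2.54 without TC71 vehicle library 1). The difference of the responses was 0.82 ± 0.24 on the log2 scale (adjusted p = 0.02), within the fold limit. Over 19 alternative settings (edgeR or DESeq2) it ranged from 0.46 to 0.95, with an adjusted p of up to 0.313. TC71 was 93.1-fold above EW8 under vehicle and 164-fold above under doxycycline.

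NEFM encodes the medium chain. It was at 0 counts in the 3 EW8 vehicle libraries and at 28, 2 and 0 counts in the EW8 doxycycline libraries, so these groups overlapped. TC71 vehicle libraries held 22.8, 26.9 and 30.3 CPM and the doxycycline libraries 201.6, 187.9 and 190 CPM. In TC71 the groups were far apart and the rise was 7.26-fold (log2 2.86 ± 0.18; edgeR adjusted p = 1.51e-09; 2.68 without TC71 vehicle library 1). The EW8 call (adjusted p = 0.0138; a doxycycline mean at least 1.45-fold above the floor, a bound short of the fold limit) came from EW8 doxycycline library 1, and without that library the adjusted p was 0.208. NEFM was at least 214-fold higher in TC71 than the floor in EW8 under vehicle. The difference of the responses did not pass the test (adjusted p = 0.387). An antisense gene without a symbol, ENSG00000272163, overlaps NEFM and held 145 to 216 counts in the TC71 libraries and at most 4 in EW8, where NEFM in TC71 held 1192 to 8353. In all, 12 genes overlap a member in the coordinates of the table. ENSG00000234638, which overlaps DES, held 0 to 18 counts, SYNM-AS1 0 to 16, SYNM-AS2 0 to 6, and MIR6841, which overlaps NEFL, 0 to 1. The remaining 5 genes (ENSG00000234961 at VIM, CCDC103 and FAM187A at GFAP, ENSG00000272157 at NEFL and ENSG00000282816 at NEFH) were at 0 in every library.

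NEFH (ENSG00000100285.9, chr22:29480230-29491390, plus strand) encodes the heavy chain, whose long phosphorylated tail marks mature axons. It was at 6.90, 6.36 and 7.29 CPM in EW8 vehicle libraries and at 10.6, 6.98 and 8.45 CPM with doxycycline. TC71 held 917.7, 876.4 and 917.8 CPM under vehicle and 502.8, 514.7 and 483.8 CPM under doxycycline. The EW8 groups overlapped, and the TC71 doxycycline libraries were all below the vehicle libraries. In EW8 the log2 fold change was 0.34 ± 0.11 (edgeR adjusted p = 0.0147), and in TC71 it was -0.85 ± 0.08 (adjusted p = 1.32e-07; -0.92 without TC71 vehicle library 1), a 1.81-fold lower level. Neither passed the fold limit. The difference of the responses did, at -1.19 ± 0.14 on the log2 scale (adjusted p = 4.24e-06). TC71 was 132-fold above EW8 under vehicle and 57.5-fold above under doxycycline. NEFH was the only neurofilament chain that was lower under doxycycline than under vehicle in TC71.

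Over the 10 genes, 2 responses were called larger in TC71 (NES and INA) and 2 smaller (VIM and NEFH), where 4.18% of all genes tested were called larger and 2.87% smaller. Under vehicle 6 genes were higher in TC71 (VIM, NES, NEFL, NEFM, NEFH and PRPH) and 2 lower (DES and INA), against 11.6% and 18.9% of all genes tested. Under doxycycline 5 were higher (NES, NEFL, NEFM, NEFH and PRPH) and 1 lower (DES), against 12.6% and 18.4%. NEFM was at 0 counts in every EW8 vehicle library and DES in every TC71 vehicle library. Under vehicle each could therefore be called in 1 direction only, and every count under vehicle given here includes both. With at least 10 counts required in every library, 5 genes were higher and 1 lower under vehicle, where 1692 and 1874 of 14647 genes tested were. Under doxycycline 4 were higher and 0 lower by that filter, where 1550 and 1914 were. At an adjusted p under 0.05 with no limit on the fold, 9 genes were higher and 1 lower in EW8, where 21.9% and 22% of all genes tested were, and 7 were higher and 2 lower in TC71, where 25.1% and 20.4% were. The 9 include GFAP and NEFM and the 7 include DES, which could only rise from vehicle libraries at the floor. Over the alternative settings (edgeR or DESeq2) the adjusted p in EW8 reached 0.051 for SYNM, 0.145 for INA and 0.0759 for NEFH. With no limit on the fold 4 responses were larger and 2 smaller in TC71 (12.2% and 7.07% of all genes tested). Between the lines 6 genes were higher and 3 lower in TC71 under vehicle (28.2% and 33.5%), and 7 higher and 2 lower under doxycycline (30.2% and 32.3%). Without TC71 vehicle library 1 the calls were again 2 responses larger and 2 smaller, and 6 genes higher and 2 lower in TC71 under vehicle. The comparisons share libraries: those between the lines and those within a line use the same groups.

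Levels of different genes were compared as TPM, counts divided by exon length and scaled to a fixed sum per library. The length spans all annotated exons of a gene, 5158 bases for VIM and 3783 for NEFH. It can exceed that of the transcript made, and shares and ratios between genes depend on it. The 10 genes summed to 131.6 ± 6.37 TPM in EW8 under vehicle and 786.9 ± 16.2 under doxycycline, and to 1319 ± 22.6 and 2343 ± 42.2 TPM in TC71 (mean ± SD, n = 3). In EW8, VIM made up 64.1% ± 1.87 of the sum under vehicle and 92.0% ± 0.447 under doxycycline. INA was next in EW8, at 26.7% ± 1.64, and was 5.13% ± 0.341 of the larger sum under doxycycline. In TC71, NEFH was the largest part under vehicle, at 62.6% ± 0.493 against 26.9% ± 0.255 for VIM. With doxycycline VIM was the largest, at 47.9% ± 0.755, NEFL followed at 23.9% ± 0.111, and NEFH was at 19.5% ± 0.752. The order of these TC71 shares was the same in all 3 libraries of each group. For VIM and NEFH the shares of vehicle and doxycycline libraries did not overlap in either line, and the exact two-sided permutation test gave p = 0.1, the smallest p that 3 libraries against 3 allow.

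**Figure D3:**
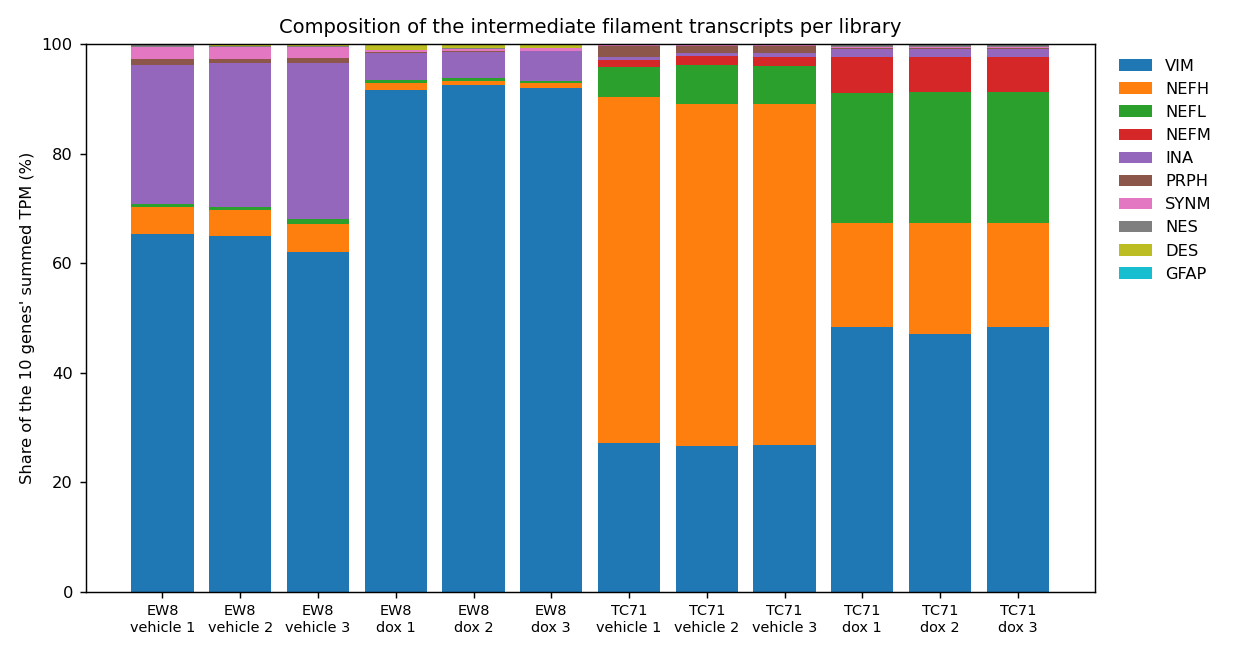
Share of each gene in the summed TPM of the 10 genes (%, stacked bars from 0 to 100) in each of the 12 libraries. VIM fills most of each EW8 bar and reaches 92.0% on average under doxycycline, and in TC71 the part of NEFH is 62.6% on average under vehicle and 19.5% under doxycycline, where the parts of VIM, NEFL and NEFM are wider.

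Ratios between members were computed with the changes of each gene known. They restate those changes per exon length and are given as a description with no test. In TC71 the ratio of NEFH to NEFL in TPM was 8.86 to 11.5 in the vehicle libraries and 0.796 to 0.847 in the doxycycline libraries, with means of 9.80 ± 1.48 and 0.815 ± 0.0283. The ratio of NEFM to NEFL lay within 0.234 to 0.257 and 0.267 to 0.277, means 0.246 ± 0.0114 and 0.272 ± 0.00517. NEFH was above NEFL in every TC71 vehicle library and below it in every TC71 doxycycline library. In EW8 the NEFH to NEFL ratio was 7.23 ± 1.54 under vehicle and 2.37 ± 0.333 under doxycycline, so NEFH was above NEFL in both. The ratio of NEFL to VIM was higher under doxycycline in TC71 (0.241 ± 0.034 and 0.499 ± 0.010) and lower in EW8 (0.011 ± 0.00314 and 0.00468 ± 0.00121). PRPH to VIM was lower in both, at 0.0147 ± 0.00351 and 0.000455 ± 7.13e-05 in EW8 and 0.0583 ± 0.0134 and 0.00255 ± 0.000498 in TC71. Each of these ratios had vehicle and doxycycline libraries that did not overlap, apart from NEFM to NEFL in EW8, where NEFM was near 0.

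**Figure D4:**
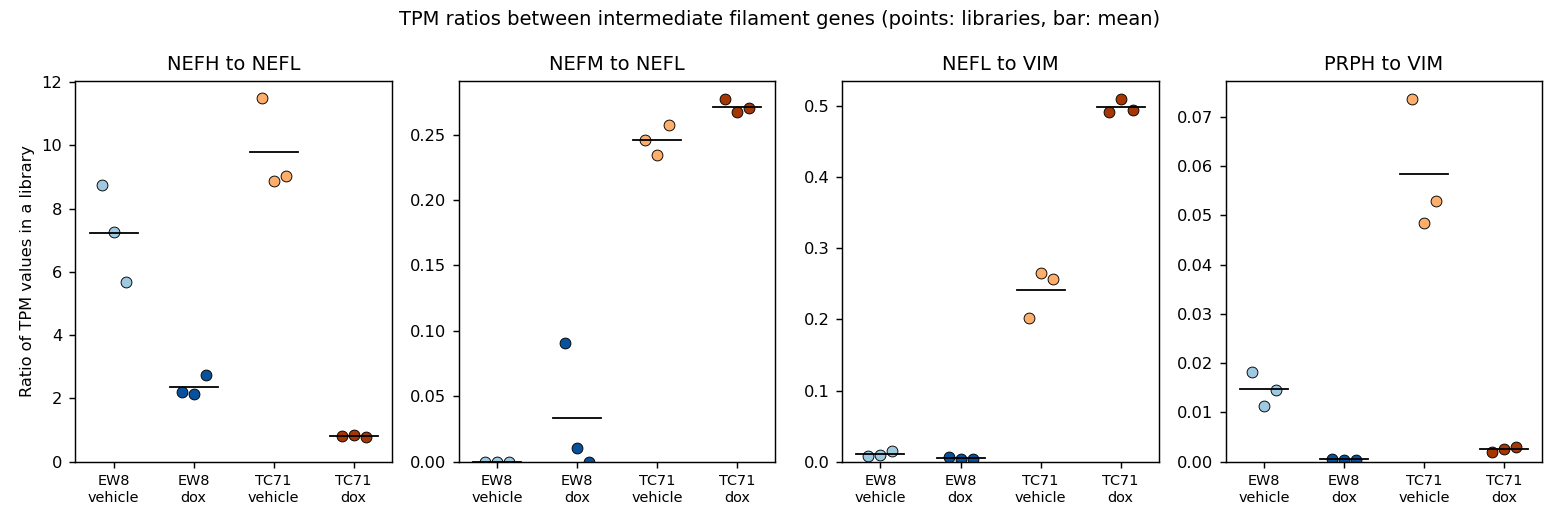
Ratio of TPM values between pairs of intermediate filament genes in each library (linear axes from 0), with a bar at the group mean of 3 libraries. NEFH to NEFL is below 1 in the 3 TC71 doxycycline libraries, NEFM to NEFL is 0.234 to 0.277 in all 6 TC71 libraries, and PRPH to VIM is lower under doxycycline in both lines.

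The genes with the pattern over the 4 group means closest to VIM, out of 14728 protein-coding genes, were TCAF2, FERMT3 and ESRP1, at root mean square distances of 0.11, 0.13 and 0.16 on the log2 scale. Those closest to NEFH were NXPH2, ACOT2 and CT45A9, at 0.08, 0.13 and 0.15. The likeness rests on 4 points and is a description. TCAF2, ACOT2 and CT45A9 have near copies in the genome. Reads that map to several places were dropped, so the values of these genes are uncertain.

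The genes that work with intermediate filaments were described by 7 lists with 54 genes, 52 of them tested. In EW8 14 were called higher and 2 lower, where 11.4% and 3.38% of all genes tested were, and in TC71 17 higher and 1 lower, where 12.3% and 3.67% were. The counts of the single lists and of the marker lists stand against these same shares. The plakins are giant linkers that tie intermediate filaments to junctions, actin and microtubules. Of 7 plakin genes 4 were called higher in EW8 and 5 in TC71. Their median log2 fold change was 1.63 and 1.71. Plectin (PLEC) went from 257.8 to 1019 CPM in EW8 (log2 1.98 ± 0.09; edgeR adjusted p = 2.32e-12) and from 139.8 to 457.7 CPM in TC71 (log2 1.71 ± 0.09). Desmoplakin (DSP), which anchors filaments at desmosomes, rose by a log2 fold change of 3.06 ± 0.15 and 3.01 ± 0.15, and dystonin (DST) by 1.71 ± 0.06 and 1.44 ± 0.06. Periplakin (PPL) rose by 1.63 ± 0.27 in EW8 and 3.60 ± 0.32 in TC71, with a called difference between the lines (log2 1.97 ± 0.41; adjusted p = 0.00219). Epiplakin (EPPK1) was higher in TC71 (log2 2.03 ± 0.29) and lower within the fold limit in EW8 (log2 -0.62 ± 0.18), and that difference was called as well (log2 2.65 ± 0.34; adjusted p = 1.56e-05). MACF1 had log2 fold changes of -0.11 ± 0.08 and 0.15 ± 0.08. Envoplakin (EVPL) was low, at 0.345 CPM or less in each group mean, and passed no test.

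Of the other non-keratin intermediate filament genes, 5 of 6 were tested. The lamins, which form the nuclear lamina, diverged. LMNA rose from 64.2 to 352.8 CPM in EW8 (log2 2.46 ± 0.08; edgeR adjusted p = 2.59e-14) and from 109.1 to 540.7 CPM in TC71 (log2 2.31 ± 0.08). LMNB1 fell from 347.7 to 168.6 CPM (log2 -1.04 ± 0.05) and from 176.7 to 72.5 CPM (log2 -1.28 ± 0.05). LMNB2 had log2 fold changes of 0.06 ± 0.06 and 0.45 ± 0.06, short of the limit. Syncoilin (SYNC), a muscle filament protein that binds desmin, was called higher in both lines, with vehicle libraries at the floor, by at least 2.17-fold (EW8) and 2.84-fold (TC71). The lens filament gene BFSP1 was not called in either line (log2 0.49 ± 0.26 and -0.89 ± 0.26), although the difference was (adjusted p = 0.0112). BFSP2 was not tested, with 0.155 CPM or less in each group mean. The list medians were 0.49 and 0.45.

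**Figure D5:**
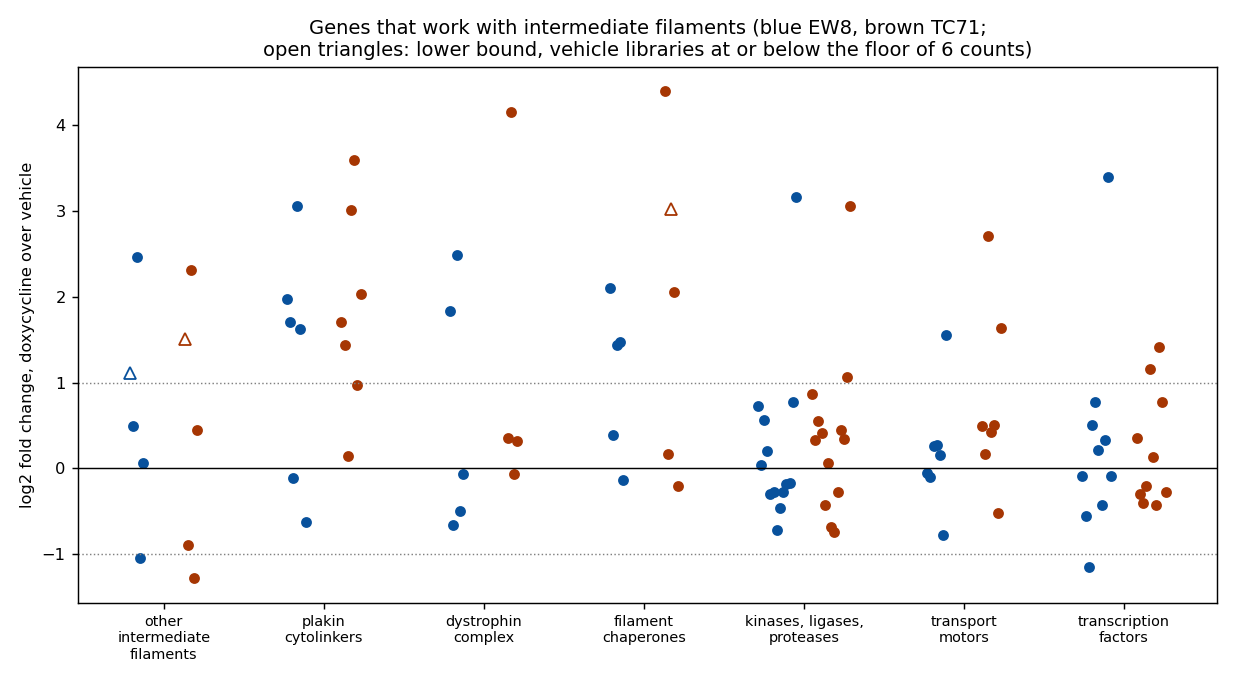
Log2 fold change, doxycycline over vehicle, of the tested genes in 7 lists of genes that work with intermediate filaments, in EW8 (blue) and TC71 (brown), with dotted lines at 1 and -1. Open triangles are lower bounds for genes with vehicle libraries at or below 6 counts, and genes with both groups there, or with a bound under 1-fold, are not drawn. Most plakin points lie above 1 in both lines, while most kinases, motors and transcription factors lie between the dotted lines.

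Among the 5 partners of synemin in the dystrophin complex, DTNA, which encodes alpha-dystrobrevin, rose by a log2 fold change of 2.49 ± 0.09 in EW8 and 4.15 ± 0.10 in TC71. DMD, the dystrophin gene, rose in EW8 (log2 1.84 ± 0.35; edgeR adjusted p = 0.000381) and was at the floor in both TC71 groups. The list medians were -0.06 and 0.35. Of 5 chaperones of filaments 3 were called higher in each line. CRYAB, the small heat shock protein that binds desmin and vimentin, rose by 2.10 ± 0.42 and 4.40 ± 0.49, and BAG3, a co-chaperone of small heat shock proteins, by 1.47 ± 0.08 and 2.06 ± 0.08. HSPB8 was at 0 in TC71 vehicle libraries and at least 8.11-fold above the floor with doxycycline. The list medians were 1.44 and 2.06.

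The 13 kinases, ubiquitin ligases and proteases that act on filaments had 1 call in EW8 and 2 in TC71, all higher, which is 7.69% and 15.4% of the list and close to the shares of all genes. These were CAPN2, a calpain that cuts intermediate filament proteins (log2 3.16 ± 0.05 in EW8 and 3.06 ± 0.05 in TC71), and CAPN1 in TC71 (log2 1.07 ± 0.07). The list medians were -0.17 and 0.34. Of 7 motor genes for neurofilament transport, MYO5A was higher in both lines (log2 1.55 ± 0.10 and 1.64 ± 0.09) and KIF5C in TC71 (log2 2.71 ± 0.26), with list medians of 0.16 and 0.49.

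Transcription factors known to act on the members gave 1 call in each direction in EW8 and 2 higher calls in TC71, out of 10 tested (10% in each direction in EW8 and 20% higher in TC71), with medians of 0.06 and -0.04. SNAI2 rose from 1.15 to 12.2 CPM in EW8 (log2 3.40 ± 0.20; edgeR adjusted p = 8.09e-11) and in TC71 was within the limit (log2 0.77 ± 0.16), a called difference (log2 -2.64 ± 0.25). ZEB1 was called in TC71 (log2 1.41 ± 0.14) and not in EW8 (log2 0.33 ± 0.13). MEF2C, which acts on muscle genes, was called in TC71 (log2 1.16 ± 0.15; 0.77 ± 0.15 in EW8). POU3F2, a neural factor, fell in EW8 (log2 -1.15 ± 0.07; -0.40 ± 0.07 in TC71). The other factors were within the fold limit in both lines: REST, the repressor of neuronal genes (log2 -0.09 ± 0.07 and 0.36 ± 0.07), SP1 (-0.42 ± 0.05 in both), SRF (0.21 ± 0.07 and 0.13 ± 0.07), STAT3 (0.51 ± 0.06 and -0.21 ± 0.06), SOX2 (-0.55 ± 0.07 and -0.30 ± 0.07) and TWIST1 (-0.09 ± 0.13 and -0.28 ± 0.13). MYOD1, the muscle master regulator, was at 0 in all 12 libraries and was not tested.

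Marker lists were described for the tissues in which the members are best known. Of 12 tested neuronal markers 3 were called higher and 2 lower in EW8, and 3 higher and 1 lower in TC71, with medians of -0.04 and 0.23. STMN2, a tubulin-binding protein of growth cones, was at 0 under vehicle and at least 5.01-fold above the floor in EW8 and 3.91-fold in TC71. TUBB3, the neuronal tubulin, rose in EW8 (log2 2.33 ± 0.40) and in TC71 (log2 3.71 ± 0.45; edgeR adjusted p = 1.68e-06), and the difference between the lines did not pass the test (adjusted p = 0.123). MAP2, a microtubule protein of dendrites named after its values were seen, rose from 3.19 to 44.9 CPM in TC71 (log2 3.81 ± 0.16) and was within the fold limit in EW8 (log2 0.65 ± 0.18), a called difference (log2 3.16 ± 0.24; adjusted p = 3.21e-08). GAP43 was also called higher in EW8 (log2 1.51 ± 0.16). DCX and SYP were called lower in EW8 (log2 -1.44 ± 0.37 and -1.11 ± 0.15). In TC71 DCX did not pass the test, and SYP was higher within the fold limit (log2 0.90 ± 0.15). SNAP25, a synaptic fusion protein, was called lower in TC71, from 0.113 CPM (2 to 14 counts) to 0. Its vehicle mean was 0.795 times the floor of the doxycycline libraries, so no fold is given. None of the 4 tested neural progenitor markers was called in edgeR. Without the fold limit, 2 of them in EW8 and 4 in TC71 were below an adjusted p of 0.05. The 2 in EW8 were lower, and in TC71 1 was higher and 3 were lower. At an unadjusted p of 0.05 the numbers were 3 and 4, and the list medians were -0.41 and -0.34. Of 5 tested astroglial markers S100B and FABP7 were lower in EW8 (log2 -2.21 ± 0.19 and -1.38 ± 0.09), while GFAP was higher there. S100B was called lower in TC71 from 0.107 CPM (4 to 8 counts) to 0. Its vehicle mean was 0.755 times the floor of the doxycycline libraries, so no fold is given.

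Desmin and synemin are muscle proteins, so muscle markers were set beside them. ACTC1, the cardiac actin, was the 1 call among 5 tested skeletal and cardiac muscle genes, at least 7.34-fold above the floor in EW8 and 3.01-fold in TC71, and MYOD1, MYOG and MYF5 were at 0 in every library. Among 6 tested smooth muscle genes 3 were called higher in each line, with CNN1, which encodes calponin, at log2 1.88 ± 0.26 and 2.80 ± 0.52 and SMTN, which encodes smoothelin, at 1.87 ± 0.10 and 2.59 ± 0.11. Of 11 fibroblast and mesenchymal genes 1 was higher and 2 lower in EW8, and 4 higher and 3 lower in TC71. In EW8 LUM (log2 -2.36 ± 0.65) and PDGFRB (-1.08 ± 0.14) were called lower and PDGFRA (1.58 ± 0.28) higher. In TC71 DCN (-1.73 ± 0.25), LUM (-1.66 ± 0.46) and PDGFRB (-1.42 ± 0.14) were called lower. Called higher in TC71 were S100A4 (2.64 ± 0.13), PRRX1 (2.22 ± 0.10), COL1A1 (1.83 ± 0.11) and COL1A2, at least 2.29-fold above the floor. The list medians were -0.17 and 0.13.

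The lines were checked against Ewing sarcoma markers, all 7 of which were expressed in each group. LIPI, a phospholipase gene known in this tumour, was the 1 call, lower in EW8 (log2 -1.40 ± 0.11; -0.65 ± 0.11 in TC71). Markers of other cell types were 8 genes, 5 of them tested, and their summed level was 71.5 to 80.3 CPM in EW8 vehicle libraries, 110.2 to 120.7 in EW8 doxycycline libraries, 0.573 to 1.58 in TC71 vehicle libraries and 15.6 to 16.3 in TC71 doxycycline libraries. PECAM1, an endothelial marker, rose in EW8 (log2 2.41 ± 0.14) and was at least 33.5-fold above the floor in TC71, and EPCAM, an epithelial marker, rose in TC71 (log2 4.05 ± 0.35). PTPRC, of blood cells, made up most of the EW8 sum and had a log2 fold change of 0.19 ± 0.11 there, while CD3E was at or below the floor in every group and HBB at 0. Their part in the levels of the 10 filament genes was not tested.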

How the data were processed

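Poly(A) RNA of 12 libraries was sequenced by the authors as read pairs from TruSeq stranded libraries and mapped to GRCh38 with STAR. The deposited values are raw counts per gene, made by the authors with featureCounts 2.0.1 over GENCODE 29 exons. Per the file headers, mates were counted one by one, strand was not used, and reads on overlapping genes or several places were dropped, so a gene and its antisense partner cannot be told apart where they overlap. The submitters' notes also name FastQC, MultiQC and edgeR.

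Counts were tested with edgeR 4.0.16 in R 4.3.3: filterByExpr, TMM scaling, 1 quasi-likelihood fit of the 12 libraries by group, Benjamini-Hochberg adjustment over 21013 genes, and calls at an adjusted p under 0.05 and a log2 fold change over 1 in size, the limits the study used with DESeq2. The difference of the responses is the interaction of line and treatment. TPM used the exon length in the table. Vehicle levels at or below 6 counts in each library give bounds, computed against the mean of the floors of the group. The step was tested on simulated data. The alternatives were DESeq2 1.42.0, other scalings and filters, halved counts, a replicate block, each line fitted alone and each library left out. Replicate numbers did not pair the libraries. Figures were drawn with matplotlib 3.10.9.

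The 10 members and the gene lists were chosen with earlier results of these data known. Named were all members, JUN and FOS, genes that overlap a member, every gene of the lists of other filament genes, plakins and transcription factors, the 2 genes of each other list with the largest called change in each line, and the 3 protein-coding genes closest in pattern to each of the 2 most abundant members. Some marker genes, MAP2 among them, were named beyond this rule with their values known.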

Additional observations from a re-analysis of the deposited data

Results flagged for a closer look

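For 6 of the 10 genes the response to doxycycline differed between the lines in the edgeR test of the difference itself, TC71 minus EW8, at an adjusted p under 0.05. VIM responded less in TC71, by -1.48 on the log2 scale, and within each line every doxycycline library was above every vehicle library. NEFH had a difference of -1.19, with all TC71 doxycycline libraries below the vehicle libraries and the EW8 libraries overlapping. INA had a difference of 1.88 and NES of 1.44, both toward a larger response in TC71. The differences for NEFL (0.82) and SYNM (0.80) were in the same direction and within the fold limit of 1. Over 19 alternative settings (edgeR or DESeq2) the NEFL difference ranged from 0.46 to 0.95. Its adjusted p there reached 0.313, so it did not pass the test in every setting. No cause of these differences was tested. Groups of 3 libraries are too small for the test for a library far from the others.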

How the results depend on the processing

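Counts near the floor limit DES, GFAP and NEFM, and with 3 libraries a group no exact test of a share can go below p = 0.1. Requiring 10 counts in every library removed such genes from the test: it left 3 members called higher in EW8, and 1 lower in TC71 than in EW8 under vehicle and 0 under doxycycline. By that rule 1 partner gene was lower in EW8, where the main fit called LMNB1 (log2 -1.04 ± 0.05) and POU3F2 (log2 -1.15 ± 0.07). LMNB1 held at least 2960 counts and POU3F2 at least 1232 in every library, so both stayed in the test. The cause of the lost call was not tested. DESeq2 and the other scalings gave the same member counts as edgeR except for 3 responses called smaller in TC71 with DESeq2, and no scaling moved the median of all genes beyond -0.09.

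Without the fold limit, 2 members were lower in TC71, 4 responses were larger in TC71, 2 members were lower in TC71 than EW8 under doxycycline, and partner genes numbered 23 higher and 13 lower in EW8 and 32 higher and 11 lower in TC71. With EW8 fitted alone 4 members were called higher in place of 6, and with TC71 fitted alone 6 in place of 7, since the low-count filter then removed GFAP and NEFM in EW8 and DES and GFAP in TC71. With halved counts 5 were called higher in EW8, where GFAP was not tested. With halved counts, or with EW8 fitted alone, 1 partner gene was again lower in EW8, and here too the cause was not tested. Shares computed without exon length are given in the order EW8 vehicle, EW8 doxycycline, TC71 vehicle, TC71 doxycycline. They were 71.6%, 94.3%, 32.9% and 53.5% for VIM and 4.01%, 0.756%, 56.3% and 15.9% for NEFH.

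When 1 library at a time was left out, 5 to 6 members were called higher in EW8, 1 to 3 responses were larger and 2 to 3 smaller in TC71, and 1 to 2 partner genes were lower in EW8 and 1 to 2 in TC71. VIM shares ranged over 63.4% to 65.2%, 91.8% to 92.2%, 26.7% to 27.0% and 47.7% to 48.3%, and NEFH shares over 4.79% to 4.97%, 0.893% to 1.10%, 62.4% to 62.8% and 19.0% to 19.7%. For GFAP, with both vehicle groups at the floor, the fitted log2 difference between the lines changed sign to 0.12, 0.19 and 0.47 without TC71 vehicle library 3, TC71 vehicle library 2 and EW8 vehicle library 3, and was -0.77 without TC71 vehicle library 1. The NEFM difference of responses was -3.46 (adjusted p = 0.0496) with no filter on low counts. The PRPH difference was -1.10 (adjusted p = 0.0329) with at least 10 counts in every library.

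With a replicate block the member counts were 6 higher and 1 lower in EW8 and 7 higher and 1 lower in TC71. The deviations of libraries with the same replicate number correlated between -0.03 and 0.02 in 18 pairs, so the numbers name libraries and do not pair them.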
